A study of Arabidopsis thaliana with 4 samples.

Results

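The GASA genes of Arabidopsis thaliana encode small cysteine-rich peptides, and 10 of them (GASA1, 2, 3, 4, 5, 6, 9, 10, 11 and 14) were followed by locus among the 33518 loci of the count tables. RNA had been sequenced from whole seedlings grown for 5 days on MS medium under constant light. The HBI1-Ox group held 2 libraries of plants carrying 35S::HBI1-YFP, which is HBI1 joined to a yellow fluorescent protein and driven by the viral 35S promoter, strong in most plant tissues. The Col-0 group held 2 libraries of the wild-type accession without the construct. HBI1 is a growth-promoting transcription factor of the basic helix-loop-helix (bHLH) class, and the series asked how its overexpression alters the transcriptome. The labels do not say whether the overexpressor came from a single transformed plant, nor whether replicate libraries were grown separately. The p-values below therefore rest on differences between replicate libraries that may be technical.

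GASA stands for gibberellic acid-stimulated in Arabidopsis, after the tomato gene GAST1. Gibberellin promotes germination, stem elongation and flowering by causing the loss of DELLA proteins, which restrain growth, and several GASA genes are induced by the hormone. The peptides carry a signal for secretion, and their mature part is held together by disulphide bonds between conserved cysteines. In seedlings and seeds the family is known for roles in cell elongation, germination, flowering time and the handling of reactive oxygen, with some members promoting and others restraining gibberellin responses.

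The conserved end of the peptide shows what joins the members. Translated from the RefSeq coding sequences (TAIR10.1), each of the 10 proteins ended 1 residue after a block bounded by the first and the last of 12 cysteines. The block was 58 residues long in 8 members and 59 in GASA10 and GASA14. In those 8 members the spacing of the cysteines was the same throughout. Across the 45 pairs of members the block shared between 39.7% and 87.9% of its residues, with a median of 50.9%. The closest pair was GASA2 and GASA3, at 87.9% of the block and 86.0% of the coding bases, and GASA4 and GASA6 shared 74.1% of the block. In front of the block every member but GASA14 had 29 to 60 residues. GASA14 had 215 there, of which 77 were prolines. The coding bases of the block are given for the 4 members with the largest changes, from the RefSeq TAIR10.1 genome and 5′ to 3′ on the coding strand, with the 12 cysteine codons in capitals. They lie at chr4:6073020-6073193 (minus strand, GASA3), chr5:4945846-4946019 (plus, GASA4), chr3:638329-638502 (minus, GASA5) and chr1:28053714-28053887 (plus, GASA6).
GASA3: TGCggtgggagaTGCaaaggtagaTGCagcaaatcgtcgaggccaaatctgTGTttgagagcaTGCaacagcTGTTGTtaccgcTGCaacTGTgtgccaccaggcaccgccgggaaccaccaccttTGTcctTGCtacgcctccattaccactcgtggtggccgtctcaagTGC
GASA4: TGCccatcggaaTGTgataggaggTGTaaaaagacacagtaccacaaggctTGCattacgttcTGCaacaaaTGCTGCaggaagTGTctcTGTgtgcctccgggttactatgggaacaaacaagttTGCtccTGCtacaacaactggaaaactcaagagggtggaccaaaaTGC
GASA5: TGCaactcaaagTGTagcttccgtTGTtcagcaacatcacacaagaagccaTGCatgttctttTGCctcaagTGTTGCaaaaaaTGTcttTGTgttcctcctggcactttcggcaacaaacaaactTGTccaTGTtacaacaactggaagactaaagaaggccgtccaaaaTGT
GASA6: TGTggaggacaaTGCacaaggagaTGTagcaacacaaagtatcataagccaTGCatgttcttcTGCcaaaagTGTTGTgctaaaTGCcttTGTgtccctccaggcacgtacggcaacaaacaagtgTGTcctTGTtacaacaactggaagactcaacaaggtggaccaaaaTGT

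The libraries held 19647745 and 14981824 reads on genes in HBI1-Ox and 13068448 and 10785178 in Col-0. The overexpressed gene HBI1 stood at 1566 and 1508 CPM (the usual depth-scaled read count, here on TMM-normalised library sizes) in HBI1-Ox and at 99.2 and 84.5 CPM in Col-0. Reads of the transgene and the native gene cannot be told apart. The HBI1-Ox libraries were much more alike than the Col-0 libraries. A chi-square test with Benjamini-Hochberg adjustment told the HBI1-Ox pair apart at 64 of 20127 nuclear genes, and the Col-0 pair at 2322 of 20074. Calls are therefore also given after the HBI1-Ox libraries were summed into 1 sample. A gene was called when edgeR's quasi-likelihood test gave a Benjamini-Hochberg adjusted p under 0.05.

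Of the 10 GASA genes, 8 had enough reads to be tested. GASA3, GASA4, GASA6 and GASA9 rose, GASA5 fell, and GASA1, GASA10 and GASA14 did not pass the test. That is 4 higher and 1 lower, where 8.33% of all 20320 tested genes were called higher and 7.15% lower in HBI1-Ox. The median log2 change of the 8 was 0.17, against -0.01 for all tested genes. GASA3 and GASA5 reached the minimum of about 0.713 CPM in a pair of libraries only through the group where each was higher, so their inclusion already leaned towards a difference. With the HBI1-Ox libraries summed, only GASA4 and GASA6 were called, both higher. In the plant as a whole, fewer cells expressing a gene and less RNA per cell cannot be told apart.

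**Figure D1:**
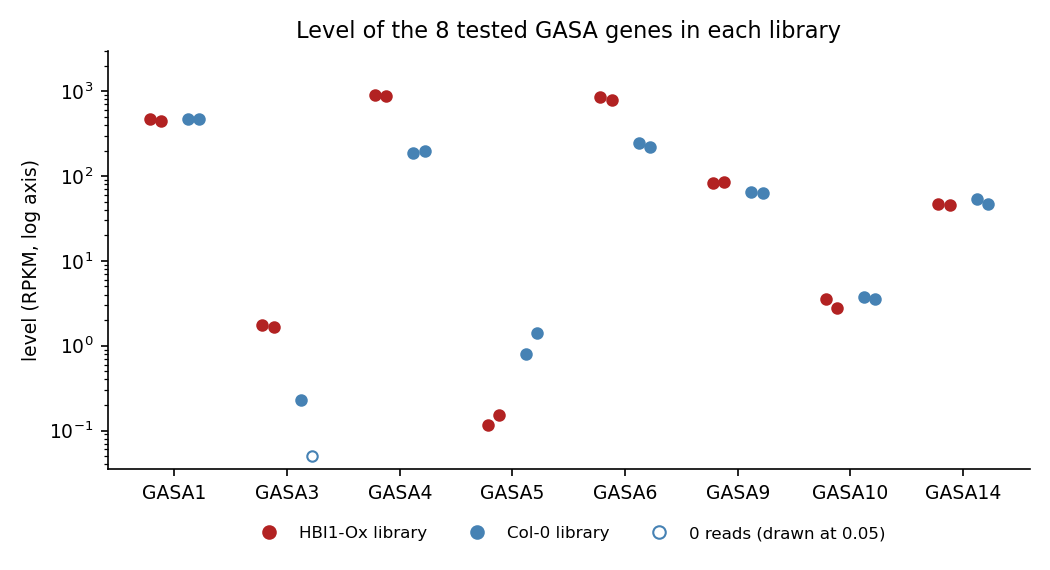
Level of each tested GASA gene in each library, in RPKM (CPM per kilobase of exon) on a log axis, with HBI1-Ox libraries left of Col-0 libraries. GASA4 and GASA6 lie between 794 and 897 RPKM in HBI1-Ox and between 185 and 244 RPKM in Col-0, while GASA1 lies between 450 and 476 RPKM in all 4 libraries.

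GASA4 (AT5G15230) rose most among the abundant members. It lies on chromosome 5 from 4944816 to 4946299, on the plus strand, with 2 annotated mRNAs of 3 or 4 exons, and is known for promoting flowering and for reducing the build-up of reactive oxygen. It had 16622 and 12294 reads in HBI1-Ox, against 2493 and 2286 reads in Col-0, which is 893 and 863 CPM against 184 and 198 CPM. The groups lay far apart and the libraries within each were close. The log2 change was 2.20 ± 0.06 (standard error), a 4.60-fold rise, with an adjusted p of 3.6e-05 (edgeR). By size of rise it ranked 45 among the 20320 tested genes.

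GASA6 (AT1G74670), which promotes germination by elongating the embryonic axis downstream of gibberellin, rose in the same way. It lies on chromosome 1 from 28053030 to 28054149, on the plus strand, with 3 exons. It had 14408 and 10293 reads in HBI1-Ox, against 3009 and 2321 reads in Col-0, or 774 and 723 CPM against 222 and 201 CPM. Again no library of one group came near the other. The log2 change was 1.82 ± 0.07, a 3.54-fold rise, with an adjusted p of 0.00012 (edgeR). An annotated gene on the opposite strand, AT1G74675, overlaps GASA6 over 206 bases and is absent from the counted loci. The strand setting of the counting is not given, so whether reads of AT1G74675 were counted for GASA6 is not known.

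Both calls held throughout. The log2 change of GASA4 stayed between 2.05 and 2.26 and that of GASA6 between 1.67 and 1.91 over the 12 alternatives tried, with adjusted p of at most 0.0046 and 0.0095. Per kilobase of exon, GASA4 stood at 1.05 and 1.09 times the level of GASA6 in the HBI1-Ox libraries and at 0.757 and 0.900 times in the Col-0 libraries. The order of the pair thus turned between the groups, a difference given without a test.

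GASA9 (AT1G22690; chromosome 1, 8027126 to 8028168, plus strand) rose by little. It stood at 62.6 and 65.8 CPM in HBI1-Ox, against 49.0 and 48.2 CPM in Col-0. The log2 change was 0.40 ± 0.06, a 1.32-fold rise, with an adjusted p of 0.0099 (edgeR). The call was lost with the HBI1-Ox libraries summed (adjusted p = 0.13) and without HBI1-Ox library 1 (0.11) or library 2 (0.16), at nearly the same size of change. Its 3′ neighbour AT1G22700, on the opposite strand, overlaps it by 11 bases.

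GASA3 (AT4G09600; chromosome 4, 6072804 to 6073646, minus strand), known as a gene of developing and dry seeds, was scarce but rose. It had 21 and 15 reads in HBI1-Ox, against 2 and 0 reads in Col-0. Scaled to the libraries, the summed reads were 13.7 times as many in HBI1-Ox, with a 95% exact counting interval from 3.54 to 118 that covers counting error only. The fitted log2 change was 3.64 ± 0.69 with an adjusted p of 0.018 (edgeR), a value that depends on how so few reads are smoothed. Without Col-0 library 1, which held both Col-0 reads, it was 7.03, and without Col-0 library 2 it was 2.83. The call was lost with the HBI1-Ox libraries summed (adjusted p = 0.13) and without HBI1-Ox library 1 (0.18) or library 2 (0.15). GASA2 (AT4G09610; chromosome 4, 6074770 to 6075645, minus strand), its neighbour 1123 bases away and its closest relative, had 1 and 0 reads in HBI1-Ox and 0 in both Col-0 libraries. A count of 0 allows up to 3 reads in a library, and how the authors assigned reads shared by similar genes is not given.

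GASA5 (AT3G02885; chromosome 3, 637921 to 639242, minus strand) went the other way. It is known as a repressor of flowering and of gibberellin-driven stem growth. It had 2 and 2 reads in HBI1-Ox, against 10 and 15 reads in Col-0. Scaled to the libraries, HBI1-Ox held 12.2% of the Col-0 level, with a 95% exact counting interval from 3.09% to 35.4%. The log2 change was -2.95 ± 0.57 with an adjusted p of 0.020 (edgeR). The fall missed the threshold with DESeq2's Wald test (adjusted p = 0.068), with the HBI1-Ox libraries summed (0.15), and without HBI1-Ox library 1 (0.23) or library 2 (0.18). Without Col-0 library 2 it was too scarce to be tested.

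**Figure D2:**
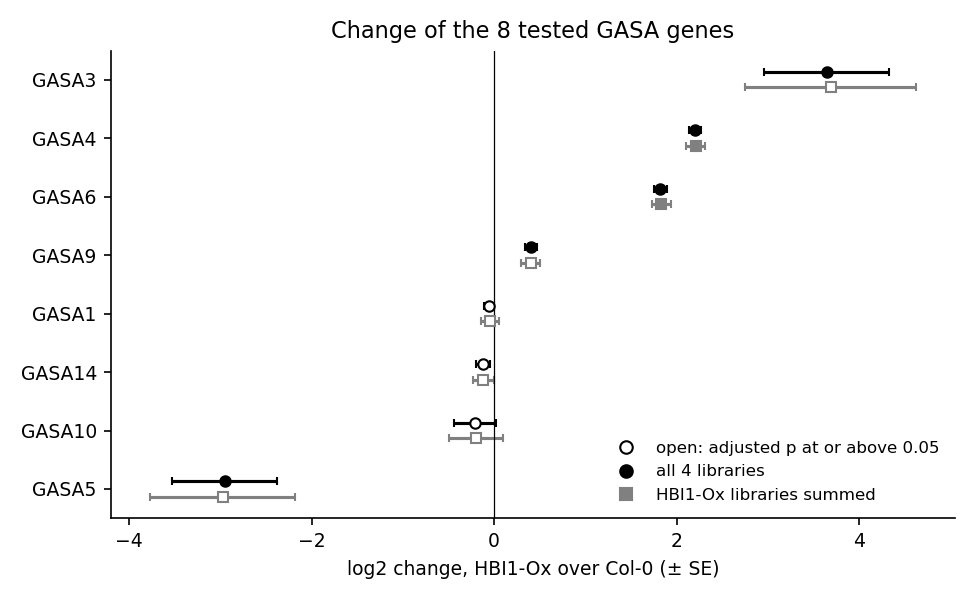
Log2 change of the 8 tested GASA genes, HBI1-Ox over Col-0, with standard errors as bars, from all 4 libraries (black circles) and with the HBI1-Ox libraries summed (grey squares); filled symbols have an adjusted p under 0.05. GASA4 and GASA6 are filled in both, whereas GASA3, GASA5 and GASA9 are filled only with all 4 libraries.

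GASA1 (AT1G75750; chromosome 1, 28441501 to 28442435, minus strand), which gibberellin induces and brassinosteroid represses, was abundant and did not pass the test. It stood at 355 and 342 CPM in HBI1-Ox, against 361 and 362 CPM in Col-0. The log2 change was -0.05 ± 0.05 (edgeR adjusted p = 0.56). Its nearest relative in these coding sequences, GASA11 (AT2G18420; chromosome 2, 7993801 to 7994554, plus strand), shared 79.3% of the block but had 1 and 0 reads in HBI1-Ox and 0 in both Col-0 libraries.

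GASA14 (AT5G14920; chromosome 5, 4826141 to 4828384, plus strand), the proline-rich member, known from leaf growth and salt tolerance, had 92.2 and 90.8 CPM in HBI1-Ox, against 105.6 and 93.6 CPM in Col-0. Its log2 change was -0.12 ± 0.07 (edgeR adjusted p = 0.32). Without Col-0 library 2 it was -0.20 and was called (adjusted p = 0.00062), whereas without Col-0 library 1 it was -0.02 (0.82). GASA10 (AT5G59845; chromosome 5, 24111304 to 24112100, plus strand) had 46 and 28 reads in HBI1-Ox, against 36 and 29 reads in Col-0, and a log2 change of -0.21 ± 0.23 (edgeR adjusted p = 0.60). These small differences depend on the scaling. When libraries were scaled by total counts alone, the median over all tested genes was -0.16 on the log2 scale, against -0.01 with TMM factors. GASA1 and GASA14 were then called lower, at -0.20 and -0.27 (adjusted p = 0.034 and 0.031).

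The order of the members by level differed between the groups. Per kilobase of exon, the highest member in HBI1-Ox was GASA4 at 882 ± 21 RPKM (SD, n = 2 libraries), followed by GASA6 at 822 ± 40 and GASA1 at 458 ± 12. In Col-0 the highest was GASA1 at 476 ± 0.45 RPKM, followed by GASA6 at 232 ± 16 and GASA4 at 192 ± 10. GASA9 came next in both, at 84.1 ± 3.0 RPKM in HBI1-Ox and 63.6 ± 0.80 in Col-0, ahead of GASA14 at 45.9 ± 0.50 RPKM in HBI1-Ox and 49.9 ± 4.3 RPKM in Col-0. The neighbours GASA4 and GASA6 differed by about their combined spread in HBI1-Ox and by somewhat more than it in Col-0. GASA10 followed at 3.16 ± 0.51 RPKM in HBI1-Ox and 3.69 ± 0.14 in Col-0. The lowest tested member was GASA5 in HBI1-Ox, at 0.134 ± 0.025 RPKM, and GASA3 in Col-0, at 0.115 ± 0.163.

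The family's combined level was higher in HBI1-Ox, mainly through GASA4 and GASA6. All 10 genes together stood at 2181 and 2087 CPM in HBI1-Ox, against 925 and 907 CPM in Col-0. GASA4 supplied 41.0% and 41.3% of the family's reads in HBI1-Ox, against 19.9% and 21.9% in Col-0. GASA6 supplied 35.5% and 34.6% in HBI1-Ox, against 24.0% and 22.2% in Col-0. GASA1, at 342 to 362 CPM in the 4 libraries, supplied 16.3% and 16.4% in HBI1-Ox, against 39.0% and 39.9% in Col-0. These sums and shares follow from the changes of single genes and were given no test.

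**Figure D3:**
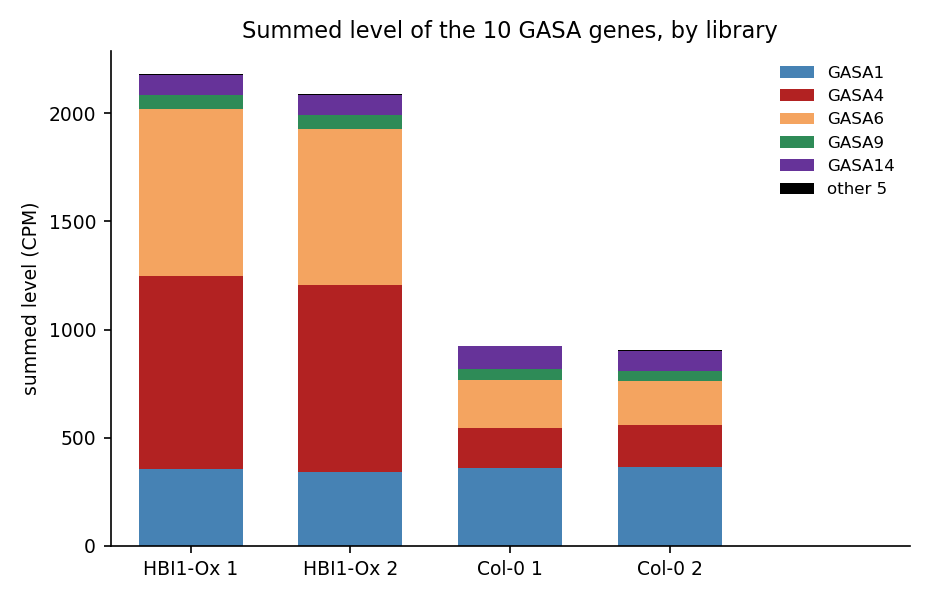
Summed level of the 10 GASA genes in each library, in CPM from 0, stacked by gene. The HBI1-Ox bars reach 2181 and 2087 CPM and the Col-0 bars 925 and 907 CPM, and the difference lies mainly in the segments of GASA4 and GASA6.

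The authors' deposited table held 1256 genes, where the count tables held 33518 loci, and listed 4 of the 10. It belongs to the same series, so its entries are not an independent check. The authors' deposited table gave log2 changes, HBI1-Ox over Col, of 3.90 for GASA3, 2.22 for GASA4, -3.02 for GASA5 and 1.84 for GASA6.

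Upstream sequence was read because the overexpressed protein belongs to the bHLH family, many of whose members bind the G-box and related E-box elements. The 250 bases before the annotated gene start were searched on both strands for short motifs. They were the G-box CACGTG, the E-box form CATGTG (which reads CACATG on the other strand) and the gibberellin response element TAACAAA. No match overlapped another, and other forms of the E-box were not searched. No member held a G-box, which 6.49% of 27443 protein-coding promoters of this length held. CATGTG was in 4 of the 10 members, GASA3, GASA4, GASA6 and GASA14, and in 11.1% of all promoters. The gibberellin response element was in GASA9 and GASA11, and in 16.1% of all promoters. Matches are letters only and show no binding. The window is shown for GASA4 and GASA6, the most abundant members that rose, and for GASA5, the member that fell, with matches in capitals. From RefSeq TAIR10.1 the windows are chr5:4944566-4944815 (plus strand, GASA4), chr1:28052780-28053029 (plus, GASA6) and chr3:639243-639492 (minus, GASA5), each written 5′ to 3′ towards the gene.
GASA4: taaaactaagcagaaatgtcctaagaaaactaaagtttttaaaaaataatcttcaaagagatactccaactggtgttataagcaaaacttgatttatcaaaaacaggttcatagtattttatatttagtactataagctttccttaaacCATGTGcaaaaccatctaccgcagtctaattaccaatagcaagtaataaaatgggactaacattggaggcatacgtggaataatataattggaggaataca
GASA6: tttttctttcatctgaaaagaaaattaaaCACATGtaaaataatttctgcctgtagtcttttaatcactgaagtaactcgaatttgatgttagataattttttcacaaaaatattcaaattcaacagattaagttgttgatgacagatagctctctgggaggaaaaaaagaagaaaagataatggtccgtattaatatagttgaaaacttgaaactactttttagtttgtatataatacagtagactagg
GASA5: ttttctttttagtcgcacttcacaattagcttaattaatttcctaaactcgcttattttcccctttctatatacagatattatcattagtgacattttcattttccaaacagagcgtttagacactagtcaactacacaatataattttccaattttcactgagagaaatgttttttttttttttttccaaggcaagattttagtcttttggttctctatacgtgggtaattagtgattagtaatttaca

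CATGTG began 101 bases before the start of GASA4 and 221 bases before that of GASA6. In GASA3 there were CATGTG matches at 188 and 97 bases, and in GASA14, which did not pass the test, at 199 bases. GASA9, which was called higher, held no CATGTG in its window or in 1000 bases. GASA5 held none of the 3 motifs in its window and a CATGTG match 295 bases before its start. In windows of 1000 bases CATGTG was in 5 of the 10 members and in 37.7% of all promoters. A G-box was in no member at that length and in 14.8% of all promoters. The gibberellin response element was in 6 of the 10, GASA4 among them, and in 46.7% of all promoters at that length.

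The other family genes of the annotation were scarce except for AT2G14900, annotated as a gibberellin-regulated family protein. It had 527 and 435 reads in HBI1-Ox, against 233 and 190 reads in Col-0, and its log2 change of 0.80 ± 0.08 passed the test (edgeR adjusted p = 0.0018), so it rose as well. The remaining 4 genes, AT2G39540, AT2G30810, AT3G10185 and AT1G10588, had between 0 and 3 reads in every library and were not tested.

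Among genes that make, inactivate and read gibberellin, GA3OX1 and RGL1 rose and GA3OX2, GA2OX2 and GA2OX6 fell. Of 23 tested pathway genes 2 rose, 3 fell and 18 did not pass, where 8.33% of all tested genes were called higher and 7.15% lower. These counts were not tested as a set. The median log2 change of the 23 was -0.04, against -0.01 for all tested genes. In synthesis, GA3OX1, which forms active gibberellin in the last step, rose to 17.1 ± 0.09 CPM in HBI1-Ox, against 5.79 ± 0.15 CPM in Col-0 (SD, n = 2 libraries each). Its log2 change was 1.57 ± 0.11 (edgeR adjusted p = 0.00049). GA3OX2, for the same step, had 13 and 12 reads in HBI1-Ox and 24 and 21 reads in Col-0. It fell (log2 change -1.22 ± 0.29, edgeR adjusted p = 0.036). Both libraries of a group reached the minimum of about 0.713 CPM only in Col-0, so its inclusion already leaned towards a difference. The other 6 of 8 tested synthesis genes did not pass.

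Of 4 tested genes of gibberellin 2-oxidases, which inactivate the hormone, 2 fell and 2 did not pass (7.15% of all tested genes were called lower). GA2OX6 stood at 5.90 ± 0.29 CPM in HBI1-Ox and 14.1 ± 3.2 CPM in Col-0, a log2 change of -1.25 ± 0.18 (edgeR adjusted p = 0.0069). GA2OX2 stood at 4.18 ± 0.25 CPM in HBI1-Ox and 8.67 ± 2.45 CPM in Col-0, a log2 change of -1.04 ± 0.22 (edgeR adjusted p = 0.027). Of 11 signalling genes only RGL1, which encodes a DELLA repressor, was called (8.33% of all tested genes were called higher and 7.15% lower). It rose to 31.5 ± 1.7 CPM in HBI1-Ox, against 10.4 ± 3.0 CPM in Col-0 (log2 change 1.62 ± 0.17, edgeR adjusted p = 0.0020). The receptor genes GID1A, GID1B and GID1C had log2 changes between 0.03 and 0.18 and none passed, and scaled by total counts those of GID1A and GID1C were below 0 (-0.12 and -0.11). GA3OX1 and RGL1 were also called with the HBI1-Ox libraries summed or either left out, and the 3 genes that fell were not. With those libraries summed their log2 changes were of the same size, at -1.23 for GA3OX2, -1.03 for GA2OX2 and -1.25 for GA2OX6 (adjusted p = 0.23, 0.16 and 0.070). GA3OX2 was also not called by DESeq2 (adjusted p = 0.298). GA3OX2 also missed the threshold with DESeq2 (adjusted p = 0.30) and with the replicate number as a block (0.054).

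**Figure D4:**
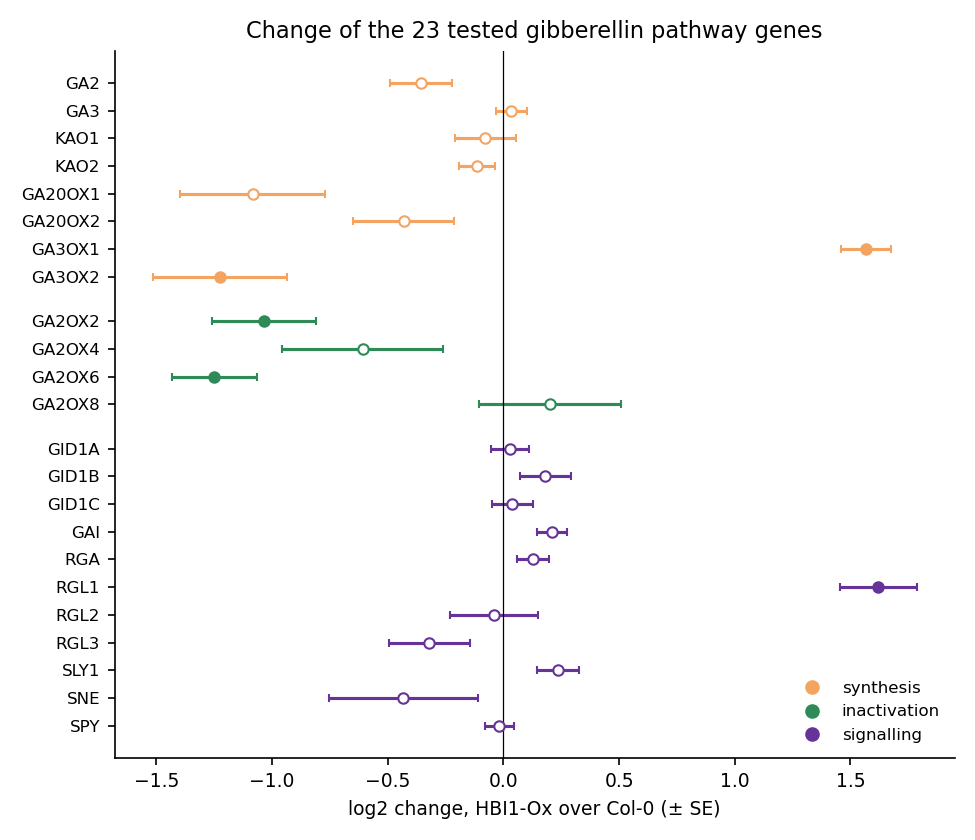
Log2 change of the 23 tested gibberellin pathway genes, HBI1-Ox over Col-0, with standard errors as bars, coloured by role; filled symbols have an adjusted p under 0.05. The filled symbols are GA3OX1 and RGL1 to the right of 0 and GA3OX2, GA2OX2 and GA2OX6 to the left.

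Genes reported to act downstream of GASA peptides were measured too. EXPA1, an expansin gene placed downstream of GASA6 in germinating seeds, had 504 and 478 CPM in HBI1-Ox and 198 and 284 CPM in Col-0. It rose, with a log2 change of 1.03 ± 0.16 (edgeR adjusted p = 0.0079). The change was of like size with the HBI1-Ox libraries summed (1.04) and without HBI1-Ox library 1 (0.99) or library 2 (1.07), but was not called there (adjusted p = 0.081, 0.098 and 0.081). FLC, a repressor of flowering that GASA5 is reported to raise, had 6.86 ± 0.13 CPM in HBI1-Ox and 7.56 ± 0.89 CPM in Col-0 and did not pass (log2 change -0.15 ± 0.14, edgeR adjusted p = 0.54). FT and LFY, flowering genes, had at most 5 reads in any library.

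The patterns most like those of GASA4 and GASA6, the 2 members with the highest mean level, were sought among 12500 nuclear genes of at least 10 CPM. Likeness was the root mean square difference of log2 CPM, centred over the 4 libraries, and is a description only. Nearest to GASA4 were NEET, AT3G05640 and AT3G19620, at differences of 0.073, 0.091 and 0.096. Nearest to GASA6 were KIN1, LTI65 and AT3G43270, at 0.023, 0.044 and 0.046. KIN1 and LTI65 are known as genes induced by cold and abscisic acid. KIN1 stood at 70.5 CPM in HBI1-Ox and 19.1 CPM in Col-0 on average, and LTI65 at 87.7 CPM in HBI1-Ox and 24.5 CPM in Col-0.

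Tissue markers were read beside these results. Of 4 green tissue genes, 3 rose (CAB2, LHCB2.1 and PSAD-1), where 8.33% of all tested genes were called higher, and the summed level of the 4 ranged from 24762 to 25819 CPM in HBI1-Ox and from 19387 to 20583 CPM in Col-0. Of 3 tested seed storage and oil body genes none passed, with a summed level over the 4 listed from 14.6 to 16.0 CPM in HBI1-Ox and from 10.7 to 15.3 CPM in Col-0, and SESA1 had at most 3 reads in any library. Neither root hair gene passed, at 32.6 to 36.6 CPM in HBI1-Ox and 34.6 to 36.7 CPM in Col-0. In the shoot meristem list KNAT1 fell (log2 change -0.37 ± 0.07, edgeR adjusted p = 0.015) and STM did not pass, while CLV3 and the flower genes AP1 and AP3 had at most 6 reads in any library. Of CAB2, LHCB2.1, PSAD-1 and KNAT1, LHCB2.1 alone was called with the HBI1-Ox libraries summed. The call of CAB2 was also lost when scaled by total counts (log2 change 0.15, edgeR adjusted p = 0.070), and that of KNAT1 with DESeq2 (adjusted p = 0.079). The part of these tissues in the GASA changes was not tested.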

How the data were processed

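Whole-seedling RNA, extracted with a Spectrum Plant Total RNA kit and made into barcoded TruSeq RNA libraries per the labels' protocols, was deposited as whole-number read counts per gene for 4 libraries, without normalization. Per the submitters' processing notes, TopHat, DESeq and the TAIR10 build were used. No source used here gives versions, the read counter or its strand setting, nor how the genes of the authors' deposited log2 fold change table were chosen.

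Footer rows that name no gene (13.2% to 13.7% of reads) were left out of library sizes. The low-count filter filterByExpr (minimum count 10, total 15) left 20320 genes. TMM scaling and the quasi-likelihood test came from edgeR 4.0.16 under R 4.3.3 (glmQLFit, glmQLFTest; 2 residual degrees of freedom; biological coefficient of variation 8.16%), with Benjamini-Hochberg adjustment across the whole table at 0.05. A standard error is the size of the log2 change over the square root of its F value. RPKM used RefSeq TAIR10.1 exon lengths (32709 loci matched). Ratios of summed reads carry 95% exact binomial intervals of counting error. Ratios and shares were given without a test (an exact permutation test cannot go below p = 0.33 here).

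The members, lists, tests and alternatives were chosen with earlier results of these data known. Named genes were the 10 members, HBI1, the called genes of the fixed lists and the 3 nearest patterns to the 2 highest members; other listed genes were added as examples after their values were seen. Gene names follow RefSeq or the lists' usual symbols. Sequences were read from RefSeq TAIR10.1, whose annotation is not that of the counts. Alternatives were RLE factors, total counts, no low-count filter, a filter of 1 CPM, DESeq2 1.42.0, limma-voom 3.58.1, the replicate number as a block, each library left out, and the HBI1-Ox libraries summed.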

Additional observations from a re-analysis of the deposited data

How the results depend on the processing

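The rises of GASA4, GASA6, AT2G14900, GA3OX1, RGL1, LHCB2.1 and HBI1 passed under all 12 alternatives, and of 24 log2 changes followed through them 2 changed sign, neither of them a called gene. With total counts GID1A stood at -0.12 and GID1C at -0.11, and with 1 library left out GID1A ranged between -0.054 (without Col-0 library 2) and 0.129, and GID1C between -0.0057 (without HBI1-Ox library 1) and 0.089. Summing the HBI1-Ox libraries gave 2 GASA genes higher and 0 lower, 0 gibberellin pathway genes lower, and 307 higher and 271 lower among all genes. Leaving out each library in turn gave 2 to 4 GASA genes higher and 0 to 1 lower, 2 to 4 pathway genes higher and 0 to 4 lower, and 242 to 3515 genes higher and 187 to 3008 lower. The lowest counts came without an HBI1-Ox library and the highest without a Col-0 library; the library left alone in its group is then assumed to vary like the other group. Scaling by total counts gave 3 GASA genes and 5 pathway genes lower, and 995 higher and 3481 lower genes, so that 22.2% of all calls were higher (53.8% with TMM factors). DESeq2's Wald test gave 844 lower genes and 0 lower GASA genes, and the filter of 1 CPM left GASA5 out, so that 0 were lower. The cause of the other differences was not tested. The replicate numbers were not shown to pair the libraries: the library differences of the 2 groups had a correlation of -0.02 across 12519 genes, which are not independent replicates. With the replicate number as a block, 1459 genes were higher and 1337 lower, with 4 GASA genes higher and 1 lower, and GA3OX2 missed the threshold (edgeR adjusted p = 0.054). At these depths GASA2 and GASA11 could not be compared, and the values of GASA3 and GASA5 rest on few reads.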
